A study of Mus musculus with 11 samples.

Results

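The fatty acid desaturases and elongases described here are the 10 genes Scd1, Scd2, Fads1, Fads2, Fads3, Elovl1, Elovl4, Elovl5, Elovl6 and Elovl7, taken by gene symbol from a table of 24421 rows of RNA counts. All 10 were found in the table, and 9 passed the filter on low counts; Elovl4 did not. RNA came from cells of E17.5 mouse lung that were held back by microbeads against EpCAM, an epithelial surface protein. The 6 libraries labelled Control were compared with 5 labelled PRDM3/16KO, in which floxed alleles of Prdm3 (listed under the symbol Mecom) and Prdm16 were recombined by ShhCre, a Cre inserted at the Shh gene and active in lung epithelium.

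Per the labels, sires that were Prdm3 fl/fl, Prdm16 fl/wt and ShhCre+ were bred to Prdm3 fl/fl Prdm16 fl/fl dams. All pups of that cross thus carry 2 floxed Prdm3 alleles and at least 1 floxed Prdm16 allele, and the labels do not say which Prdm16 or Cre genotype the Control libraries carry. They give a genotype and a number for each library but no animal, litter, sex or batch, and the p-values rest on the spread among these 11 libraries, which may in part be technical. Epcam itself was at 226 to 289 CPM in Control and 248 to 273 CPM in knockout libraries. CPM is a gene's count relative to the size of its library, after TMM scaling, which corrects that size by the trimmed mean of log ratios.

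Stearoyl-CoA desaturases, the Scd enzymes, put the first double bond into saturated acyl chains such as palmitate and stearate, which makes palmitoleate and oleate. The FADS enzymes work on polyunsaturated chains: Fads2 is the delta-6 and Fads1 the delta-5 desaturase on the way to arachidonate and docosahexaenoate. The ELOVL enzymes lengthen chains by the condensation step of the elongation cycle. Elovl6 takes palmitate to stearate, Elovl5 lengthens polyunsaturated chains, Elovl1 and Elovl7 lengthen saturated and monounsaturated long chains, and Elovl4 makes the very longest chains. In the late fetal lung, type 2 epithelial cells make surfactant, whose main lipid carries saturated palmitoyl chains.

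All 10 coding sequences hold a histidine box, in which 1 histidine is followed by 2 other residues and then by 2 histidines. In desaturases such boxes bind the iron of the active site. They are printed because the same short motif runs through both families, whichever way the gene moved. The lines give the coding strand of the box of this pattern nearest the C-terminal end, 5′ to 3′. They are from GENCODE transcripts (release M21), with the histidine codons in capitals.
Scd1: CACaactacCACCAC
Scd2: CACaactacCACCAC
Fads1: CATttccagCACCAT
Fads2: CATttccaaCACCAT
Fads3: CACttccagCACCAT
Elovl1: CATgtcttcCACCAC
Elovl4: CACgtgtacCACCAC
Elovl5: CATgtctacCACCAC
Elovl6: CACtggtacCACCAC
Elovl7: CATgtcttcCATCAT
The Scd1 box lies at residues 294 to 298 of 355 and the Elovl6 box at residues 141 to 145 of 267. Scd1 and Scd2 share their box letter for letter, and each has a second box of this pattern nearer the start, as has Fads1. Fads1, Fads2 and Fads3 each have a further box nearer the C-terminal end. It has glutamine in place of the first histidine and is not printed. In Elovl6 the codon after the first histidine is tgg. Elovl3, an elongase outside the 10, has the same box letter for letter. In the other 4 elongases of the 10 that codon is gtc or gtg.

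Across the whole table, 5973 of 13916 tested genes differed between the genotypes, 42.9% (edgeR quasi-likelihood test, adjusted p under 0.05), with 21.1% higher and 21.8% lower in the knockout. Of the calls, 49.2% were higher; with library size as the only scaling it was 65.6%, and the median over all genes, on the log2 scale, was 0.0023 with the first and 0.11 with the second scaling. CPM ranges of the groups were apart for 28.5% of tested genes, 14.2% higher and 14.2% lower. Of the 9 tested desaturase and elongase genes, 6 were lower and 1 was higher, and 2 did not pass. Ranges did not overlap for 4 of the 9. Their median log2 fold change was -0.33. The genes were chosen with earlier results of these data known, so these counts are a description.

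Libraries differed within the groups too. Depth ran from 6065906 to 7869787 counts per library. Prdm16 was at 173 to 227 CPM in Control and 147 to 181 in knockout libraries, and Mecom at 206 to 233 and 321 to 354 CPM; counts over whole genes do not show which exons were deleted. High Y-linked transcripts marked 4 of the Control libraries (numbers 1, 3, 4 and 5) and knockout library 4, and they were low in the other 6, so a split by that signal leaves 2 Control and 4 knockout libraries on the low side and 4 and 1 on the high side. Proliferation genes averaged 4.88 and 5.33 log2 CPM in Control libraries 5 and 6. The remaining Control libraries were at 3.66 to 4.27. In the knockout libraries this mean was 3.95 to 4.47. Mesenchymal genes averaged 3.92 to 4.61 log2 CPM in Control and 4.53 to 5.31 in knockout libraries. As a covariate, the mesenchymal mean can therefore hardly be told apart from genotype.

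The stearoyl-CoA desaturases Scd1 and Scd2 were the most abundant transcripts of the 10 in Control, and both fell. Scd1 (chromosome 19, 44394455 to 44407879, mm10, minus strand) had 4273, 4259.8, 3601, 4955, 2692 and 1866 CPM in the Control libraries, in the order 1 to 6. In knockout libraries 1 to 5 it was counted at 178, 138, 263, 177 and 211 CPM. Every knockout library was far below the lowest Control library, which was Control library 6. The fall was 18.6-fold, or -4.22 on the log2 scale (SE 0.27, adjusted p = 4.09e-08 by edgeR), and 6 of the 13916 tested genes had a lower value. Its rank by counts went from between 2 and 21 in Control to between 635 and 1613 in knockout libraries.

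Scd2 (chromosome 19, 44293674 to 44306864, plus strand) was counted at 4549 to 6421 CPM in Control libraries, with a median of 6149.9. In knockout libraries it was counted at 2866, 3054, 3078, 3091 and 3077 CPM. The ranges did not overlap, and the 5 knockout values lay close together, with an SD of 94.4 CPM against 744 in Control. The log2 fold change was -0.95 (SE 0.095; edgeR, adjusted p = 1.13e-06), so 51.9% of the Control mean was left. Scd2 was the transcript with the highest count of all in 5 of 6 Control libraries and ranked between 4 and 8 in knockout libraries.

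Both genes fell by unlike amounts, which changed their mix. Per kilobase of exon, Scd1 made up 39.9 ± 5.90% of the summed Scd1 and Scd2 level in Control (SD, n = 6) and 6.63 ± 1.43% in the knockout (SD, n = 5), with ranges of 31.4 to 48.2% and 4.82 to 8.71%. The ratio of Scd2 to Scd1 per kilobase was 1.1 to 2.2 in Control and 10.5 to 19.8 in knockout libraries. The summed level went from 1806 ± 355 to 595 ± 21.7 CPM per kb.

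Because the Scd genes are close copies, their reference transcripts were compared. Coding sequences of Scd1 and Scd2 are 89.6% identical, and of all distinct 50-base stretches in their transcripts 4.56% for Scd1 and 3.97% for Scd2 also occur in another gene. The longest coding run they share is 147 bases long, bases 523 to 669 of the Scd1 and 532 to 678 of the Scd2 coding sequence. It is printed as an example of a stretch in which a read fits either gene.
Scd1 and Scd2: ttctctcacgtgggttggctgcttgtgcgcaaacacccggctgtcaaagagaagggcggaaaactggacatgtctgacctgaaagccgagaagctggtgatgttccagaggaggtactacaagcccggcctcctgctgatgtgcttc
How the authors' counting treated reads that fit several genes is not given in the sources used here. The third gene of the cluster, Scd3, was counted at 2.07 to 4.80 CPM in Control and 1.6 to 2.4 CPM in knockout libraries. It fell by the test (log2 fold change -0.99; edgeR, adjusted p = 0.00281), and the ranges overlapped. Its coding sequence is 90.5% identical to that of Scd1, which was counted far above it, so its value is uncertain. The Scd3 gene span, introns included, overlaps an annotated antisense gene over 18221 bases. Exons of Scd3 come to 3552 bases, and whether they overlap that gene was not looked at. Its call was lost among the libraries with low Y-linked transcripts alone (-0.49; edgeR, adjusted p = 0.31), among those with high ones (-1.35; edgeR, adjusted p = 0.0655) and with a mesenchymal covariate (-1.03; edgeR, adjusted p = 0.0915). Scd4 had 36 counts over the Control and 40 over the knockout libraries and did not pass the filter.

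**Figure D1:**
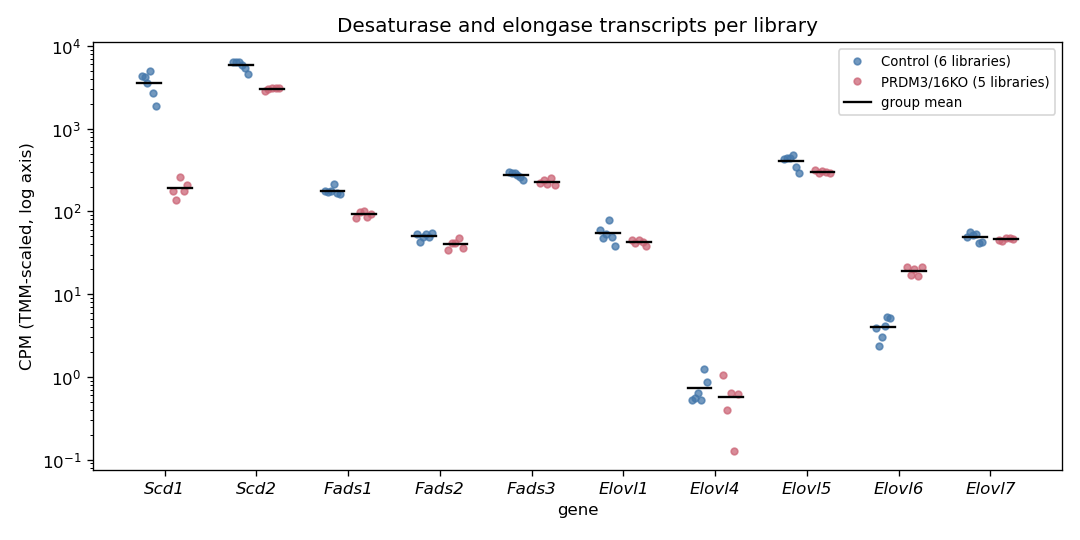
CPM of each gene on a log axis in 6 Control (blue) and 5 PRDM3/16KO (red) libraries, 1 point per library, with black lines at the group means. Scd1 separates most widely, from 1866 to 4955 CPM in Control down to 138 to 263 CPM, and Elovl6 is the gene whose knockout points lie above its Control points.

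Of the polyunsaturated desaturases, Fads1 fell most. Fads1 (chromosome 19, 10182888 to 10196877, plus strand) was counted at 164 to 215 CPM in Control libraries, with a median of 174. In knockout libraries it was counted at 82.2, 98.1, 101, 84.7 and 94.1 CPM. No knockout library reached the Control range. The log2 fold change was -0.95 (SE 0.081; edgeR, adjusted p = 1.94e-07), the same to 2 decimals as that of Scd2.

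Fads2 and Fads3 fell less, and their ranges overlapped. Fads2 (chromosome 19, 10062765 to 10101746, minus strand) was counted at 42.7 to 54.5 CPM in Control, with a median of 51.2, and at 34.2, 41.8, 41.5, 48.2 and 35.8 CPM in knockout libraries. Its log2 fold change was -0.32 (SE 0.093; edgeR, adjusted p = 0.0108). Fads3, a desaturase of the same cluster that in mammals acts on trans-vaccenate and on sphingoid bases (chromosome 19, 10041569 to 10060110, plus strand), was counted at 241 to 299.6 CPM in Control, with a median of 287. In knockout libraries it was counted at 218, 243, 215, 253 and 209.6 CPM, and its log2 fold change was -0.29 (SE 0.075; edgeR, adjusted p = 0.00556). For both genes the highest knockout value, in library 4, lay above the lowest Control value.

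Whether these smaller falls were called depended on the setting. Over all genes, calls of lower genes also dropped in the low Y-linked set, from 3037 to 1821. Scaled by library size alone, Fads2 was no longer called (-0.22; edgeR, adjusted p = 0.0799). Within the low and high Y-linked sets the log2 fold changes were -0.35 and -0.099 for Fads2 and -0.28 and -0.17 for Fads3, with no call by edgeR in either set (adjusted p = 0.0715, 0.756, 0.0722 and 0.556). With the mean log2 CPM of mesenchymal genes as a covariate they were -0.30 and -0.056 (edgeR, adjusted p = 0.206 and 0.778). For Fads1 the values in the low and high sets were -0.85 and -1.12, for Scd1 -3.96 and -4.46 and for Scd2 -0.87 and -0.97, all called by edgeR. The difference of the genotype effect between the sets, high minus low, ran from -0.5 for Scd1 to 0.26 for Fads2 among the 9 tested genes. With 1 knockout library in the high set, a test of this difference cannot show whether the sets are alike or unlike.

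The balance of the 3 FADS genes shifted towards Fads3. Per kilobase of exon, Fads1 made up 29.4 ± 2.0% of their sum in Control and 21 ± 2.2% in the knockout, and Fads3 58.4 ± 2.64% and 65.7 ± 2.03%; neither pair of ranges overlapped. The Fads2 share was 12.2 ± 1.4% and 13.3 ± 1.03%, with overlapping ranges. The ratio of Fads1 to Fads2 was 2.06 to 2.79 in Control and 1.20 to 1.80 in knockout libraries. Fads6, a little-studied relative on another chromosome, had 28 and 33 counts over the groups and did not pass the filter.

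**Figure D2:**
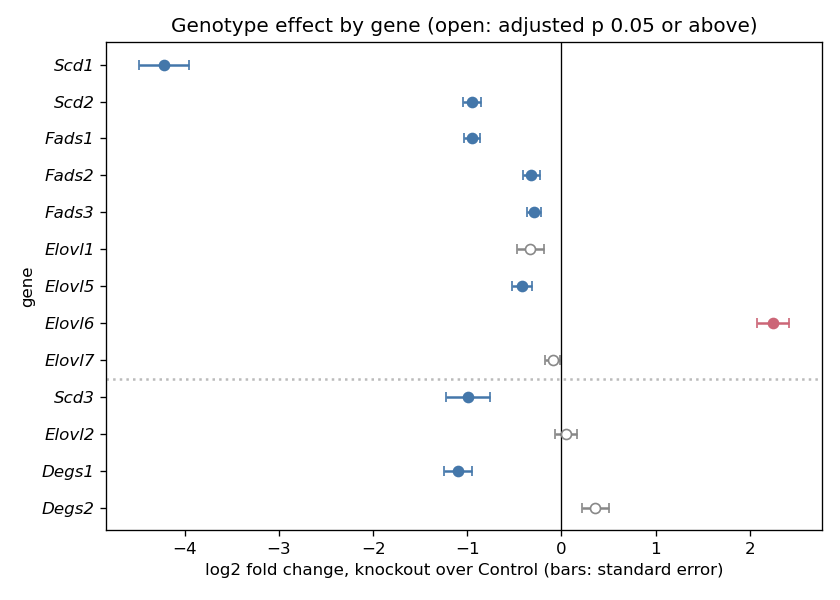
Log2 fold change, knockout over Control, of the 9 tested genes (above the dotted line) and of 4 other tested genes of the families (below it); bars are standard errors and open symbols did not pass edgeR's test. Scd1 at -4.22 and Elovl6 at 2.25 lie at the ends, and the other 7 genes above the line run from -0.95 to -0.091.

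Among the elongases, Elovl6 rose while Elovl5 fell. Elovl6 (chromosome 3, 129532355 to 129638495, plus strand) had 3.91, 2.35, 3.04, 4.16, 5.37 and 5.19 CPM in the Control libraries, in the order 1 to 6, from 17 to 42 counts each. In knockout libraries it was counted at 21.1, 17, 20.4, 16.7 and 21.2 CPM, from 129 to 172 counts. Each knockout library was above every Control library, and Control libraries 5 and 6 were the highest of their group. The rise was 4.77-fold, or 2.25 on the log2 scale (SE 0.17, adjusted p = 5.26e-08 by edgeR). It was 2.37 and 2.00 in the low and high Y-linked sets, and called by edgeR in both. Of the 50-base stretches of its transcripts, 3.98% also occur in other genes. The annotation places Gm43072, a transcript still to be tested experimentally, over 1671 bases of the Elovl6 gene span on the same strand. Gm35986 lies over 34 bases on the other. Whether these bases fall in exons of Elovl6 was not looked at, and reads there may be shared if they do.

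Elovl5 (chromosome 9, 77917364 to 77984519, plus strand) was the most abundant elongase, at 294 to 475 CPM in Control libraries with a median of 436. In knockout libraries it was counted at 315, 294, 307, 302 and 292 CPM. The ranges overlapped only through Control library 6, at 293.5 CPM. The log2 fold change was -0.42 (SE 0.11; edgeR, adjusted p = 0.00547). The values in the low and high Y-linked sets were -0.28 and -0.49, neither called by edgeR (adjusted p = 0.177 and 0.144), and the call was lost with the mesenchymal covariate (-0.23; edgeR, adjusted p = 0.455).

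Elovl1 and Elovl7, close relatives with 60.7% identical coding sequences, did not pass. Elovl1 (chromosome 4, 118428093 to 118432953, plus strand) was at 38.7 to 78.4 CPM in Control, with a median of 51.3, and at 45.8, 42.0, 45.5, 43.1 and 38.2 CPM in knockout libraries. Its log2 fold change was -0.33 (SE 0.14; edgeR, adjusted p = 0.0719). Without Control library 6 it was -0.42 and passed (edgeR, adjusted p = 0.0104), without Control library 4 it was -0.20 and did not (edgeR, adjusted p = 0.111), and among low Y-linked libraries it was -0.011 (edgeR, adjusted p = 0.959). Elovl1 overlaps the cell cycle gene Cdc20 on the other strand by 53 bases; Cdc20 was at 67.1 ± 21.8 and 59.3 ± 5.94 CPM. Elovl7 (chromosome 13, 108214404 to 108285683, plus strand) was at 41.6 to 55.9 CPM in Control, with a median of 51.1, and at 43.9 to 48.4 CPM in the knockout, which is -0.091 on the log2 scale (SE 0.081, adjusted p = 0.395 by edgeR). Its gene span, introns included, overlaps annotated pseudogenes on the other strand over 467 and 374 bases. The knockout values of Elovl7 all lay inside the Control range, and its sign turned with library-size scaling alone (0.019) and with the mesenchymal covariate (0.042).

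Elovl4 (chromosome 9, 83778692 to 83806277, minus strand) was near the limit of detection, at 3 to 9 counts in Control and 1 to 8 counts in knockout libraries. The 30 and 22 summed counts give a ratio of knockout over Control of 0.760, with a 95% exact interval of 0.418 to 1.36 that covers counting error only. A difference of Elovl4 was not detectable at this depth. Of the elongases outside the 10, Elovl2, the partner of Elovl5 in lengthening polyunsaturated chains, was at 14.9 ± 2.55 and 15.5 ± 1.1 CPM (log2 fold change 0.048; edgeR, adjusted p = 0.769); without Control library 1 the value was -0.012. Elovl3, the elongase best known from brown fat and skin, had 0 counts in Control and 3 in knockout libraries.

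The 5 elongases kept their order by level in the knockout. Elovl5 made up 77.5 ± 1.54% of their summed CPM per kb in Control and 73.8 ± 0.360% in the knockout, and Elovl6 0.446 ± 0.205% and 2.58 ± 0.289%; for both shares the ranges did not overlap. The summed level was 109 to 178 CPM per kb in Control and 112 to 121 in knockout libraries, which overlapped. The ratio of Elovl5 to Elovl6 went from between 103 and 339 to between 25.1 and 33.0.

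**Figure D3:**
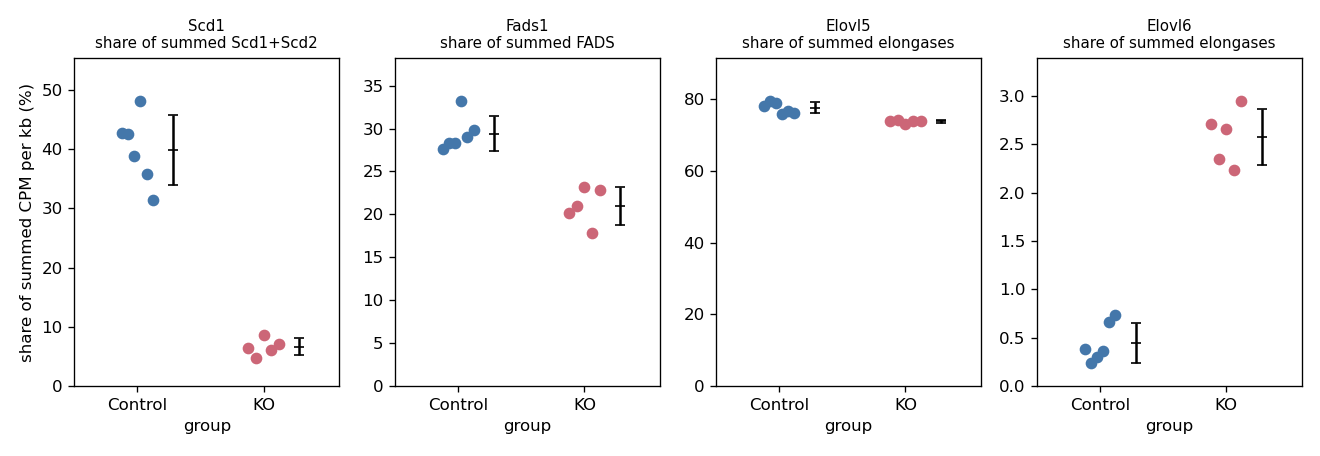
Share of the summed CPM per kb of its enzyme group held by Scd1, Fads1, Elovl5 and Elovl6, in percent, 1 point per library (blue Control, red knockout) with mean and SD beside the points; each panel starts at 0. Scd1 goes from 31.4 to 48.2% down to 4.82 to 8.71%, Fads1 and Elovl5 fall less, and Elovl6 rises to 2.23 to 2.95%.

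Levels can be compared between genes only per length, here as mean CPM per kb of exon. In Control the order was Scd2 (1069), Scd1 (737), Elovl5 (115), Fads3 (73.4), Fads1 (37.0), Elovl1 (19.9), Fads2 (15.3), Elovl7 (12.3), Elovl6 (0.622) and Elovl4 (0.240). Ranges of neighbours overlapped for Scd2 and Scd1, Elovl1 and Fads2, Fads2 and Elovl7, and Elovl6 and Elovl4. In the knockout the order was Scd2 (555), Elovl5 (85.8), Fads3 (60.0), Scd1 (39.6), Fads1 (19.1), Elovl1 (15.7), Fads2 (12.2), Elovl7 (11.5), Elovl6 (3.0) and Elovl4 (0.188). Knockout ranges of neighbours overlapped for Elovl1 and Fads2 and for Fads2 and Elovl7. By group means, Scd1 thus moved from the second place to the fourth, and the other 9 genes kept their order among themselves. With the longest transcript as the length, the order of the 10 genes was the same in both groups. Knockout ranges then overlapped for Scd1 and Fads1, Fads1 and Elovl1, and Fads2 and Elovl7.

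**Figure D4:**
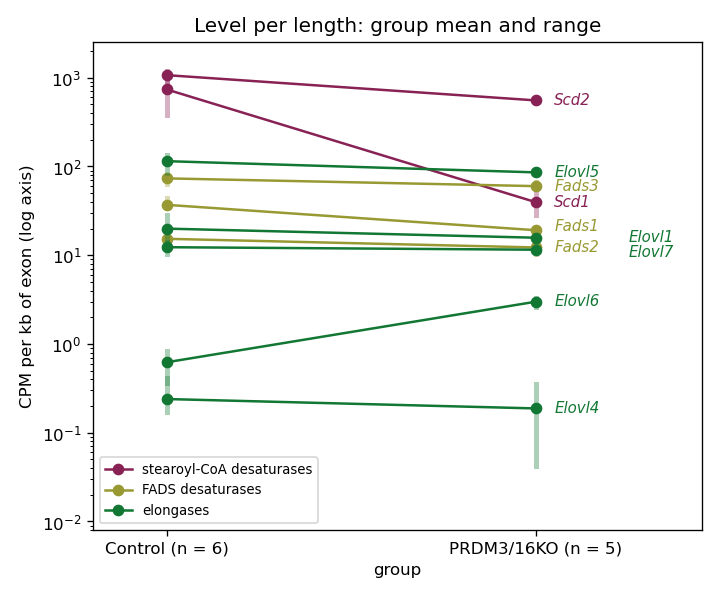
Mean level per kilobase of exon (CPM per kb, log axis) of the 10 genes in Control and PRDM3/16KO libraries; pale bars span the lowest to the highest library and colours mark the enzyme group. Scd1 drops from 737 to 39.6 past Elovl5 and Fads3, while Elovl6 climbs from 0.622 to 3.0 and stays below Elovl7.

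Within the Control group, the same genes varied between libraries. Control libraries 5 and 6 both lay below Control libraries 1 to 4 for 6 of the 9 tested genes, Scd1, Scd2, Fads1, Fads3, Elovl5 and Elovl7, and above them for Elovl6. Over all tested genes, 18.0% lay below and 12.7% above in this way. Scd1, for example, was at 2692 and 1866 CPM there against 3601 to 4955 CPM in the other 4. These are the 2 libraries with the highest proliferation values given above. With the mean of the proliferation genes as a covariate, 7 of the 9 genes were lower and Elovl6 higher in the knockout. Calls over all genes grew too, to 3520 lower and 3455 higher, from 3037 and 2936 with genotype alone. The log2 fold changes were then -4.27 for Scd1, -0.98 for Scd2, -0.97 for Fads1, -0.46 for Elovl5 and 2.35 for Elovl6, and Elovl1 passed (-0.39; edgeR, adjusted p = 0.000504). Without Control libraries 5 and 6, 8 of the 9 genes were lower and Elovl6 higher in the knockout. Over all genes, 3345 were lower and 3183 higher in that fit. Its log2 fold changes were -4.47 for Scd1, -1.05 for Scd2, -0.57 for Elovl5, -0.47 for Elovl1, -0.20 for Elovl7 and 2.53 for Elovl6. Among those given, adjusted p by edgeR ran from 2.31e-09 for Scd2 to 0.0257 for Elovl7.

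Markers of type 2 cells moved with the desaturases. Of 12 such markers, 11 fell, with log2 fold changes from -0.88 for the transcription factor gene Cebpa to -3.33 for the surfactant protein gene Sftpd; Lyz2, at 0.0016, did not pass. Their summed level was 8500.0 to 14946 CPM in Control and 3383 to 5121 CPM in knockout libraries. The Scd1 value of -4.22 lay below all 12. In bulk RNA, fewer cells of a type and less RNA per cell cannot be told apart, and the part of type 2 cell number in these results was not tested.

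Markers of other cells were measured beside them. Fat cell and lipid-storing fibroblast markers summed to 98.3 to 256 CPM in Control and 119.9 to 131 CPM in the knockout, carried by Plin2 and Lpl. Of 10 such genes, 3 passed the filter, and Plin2 was called lower (-0.58). The fat cell genes that did not pass the filter stayed at or below 5.30 CPM in every library. Their summed counts over the Control and the knockout libraries were 8 and 76 for Cfd, 5 and 48 for Fabp4, 12 and 40 for Cidec, 6 and 33 for Adipoq, 2 and 7 for Plin1, 0 and 2 for Lep and 1 and 0 for Retn. Of 10 mesenchymal markers 6 rose and the other 4 did not pass, with sums of 293 to 460 and 419.8 to 751 CPM. Neuroendocrine markers rose in 7 of 7 tested cases, with sums of 25.2 to 51.3 and 535 to 664 CPM. Of 5 tested endothelial markers Pecam1 (1.07) and Cdh5 (0.84) rose and Kdr (-1.23), the most abundant, fell, with sums of 60.0 to 102 and 46.0 to 66.2 CPM. Of 5 tested leukocyte markers 3 rose and the other 2 did not pass, with sums of 16.3 to 35.5 and 31.2 to 76.6 CPM. Mesothelial markers rose in 5 of 6 cases (1130.3 to 1610.5 and 1635 to 1922 CPM) and basal cell markers in 3 of 4 tested cases (124 to 229 and 308 to 516 CPM). Of 10 type 1 cell markers 4 rose and Pdpn fell (7132 to 11536 and 10499 to 12732 CPM). Of 8 early genes that respond to dissociation, Fos, Fosb, Egr1 and Dusp1 rose, with ranges apart, and Jun and Junb fell. Of 6 multiciliated markers 1 fell, and of 6 airway secretory markers 1 rose and 1 fell. In the erythroid list 4 globin genes were listed at 0 counts in every library. The part of these cells in the results was not tested. With the mesenchymal covariate, which largely followed genotype, the log2 fold changes of Scd1, Scd2, Fads1 and Elovl6 were -4.18, -0.74, -0.95 and 1.81. All were called by edgeR (highest adjusted p = 0.00292).

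Genes whose profiles over the 11 libraries were most like those of Scd1 and Elovl6 were found by the root mean square difference of centred log2 CPM, among 11498 genes that reached 5 CPM on average in 1 of the groups. For Scd1 they were the complement C5 gene Hc (difference 0.227; 247 to 15.1 CPM), the glucuronosyltransferase gene Ugt1a6a (0.276; 27.7 to 1.52 CPM) and the sphingosine-1-phosphate phosphatase gene Sgpp2 (0.283; 33.4 to 1.99 CPM). For Elovl6 they were Fgf13, which encodes an intracellular FGF homologue (0.202; 4.33 to 18.5 CPM), Phf21b (0.238; 1.04 to 5.59 CPM) and Hdgfrp3 (0.284; 4.10 to 19.7 CPM). The values in brackets give the difference in log2 units, then the Control and knockout means. Predicted genes and unnamed clones were left out of the comparison. Each gene was centred on its mean over all 11 libraries, so the measure favours genes with a like genotype difference. The log2 fold changes of Hc, Ugt1a6a and Sgpp2 were -4.03, -4.17 and -4.04. Whether these genes vary together within a genotype was not tested.

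Promoters of the elongase that rose and of the most abundant one that fell are printed to set their sequences side by side, from RefSeq on GRCm38.p6 (the build mm10), 250 bases before to 50 after the gene start, 5′ to 3′ on the gene's strand. Capitals mark matches on either strand to 6 motifs known from lipid genes or lung epithelium: TCACNCCAC (sterol regulatory element core), CCAAT (NF-Y), GGGCGG (Sp1), CACGTG (E-box), CACTTNA (NKX2 factors) and the LXR direct repeat, which is AGGTCA, 4 bases of any kind and AGGTCA again. The Elovl5 window is chr9:77917115-77917414 (plus strand) and the Elovl6 window chr3:129532136-129532435 (plus strand).
Elovl5: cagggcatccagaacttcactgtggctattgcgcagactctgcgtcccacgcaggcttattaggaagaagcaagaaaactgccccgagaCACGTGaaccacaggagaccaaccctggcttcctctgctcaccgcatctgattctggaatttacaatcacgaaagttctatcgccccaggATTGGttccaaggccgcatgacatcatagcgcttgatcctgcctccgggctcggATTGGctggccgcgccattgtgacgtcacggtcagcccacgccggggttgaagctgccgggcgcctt
Elovl6: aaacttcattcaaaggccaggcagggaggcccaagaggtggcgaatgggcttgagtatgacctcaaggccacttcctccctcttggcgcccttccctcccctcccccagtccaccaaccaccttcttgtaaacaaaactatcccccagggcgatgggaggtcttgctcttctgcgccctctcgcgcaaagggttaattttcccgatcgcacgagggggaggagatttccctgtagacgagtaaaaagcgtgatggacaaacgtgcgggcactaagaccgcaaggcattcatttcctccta
The Elovl5 window held 2 CCAAT matches, both read as ATTGG on this strand, and 1 E-box, CACGTG. The Elovl6 window held none of the 6 motifs, which says only that these letters are not in this window. Of 32851 promoters, 37.4% held CCAAT, 35.7% GGGCGG, 11.5% CACTTNA, 7.15% CACGTG, 1.2% TCACNCCAC and 0.0152% the LXR repeat. A promoter was matched for 7 of the 10 genes, and Scd1, Scd2 and Fads1 had no entry. Fads2, which was called lower, held neither an NF-Y nor an E-box match, and nor did Elovl7, which did not pass. Fads3, also called lower, held 2 NF-Y matches and no E-box. Elovl1, which did not pass, has 2 windows, of which 1 held 1 NF-Y match and neither held an E-box. Elovl4 held 1 NF-Y match and 1 E-box. Sp1 matches numbered 1 in Fads2, 2 in Fads3, 2 in Elovl4, 3 in Elovl7, and 5 and 2 in the Elovl1 windows. The Elovl5 and Elovl6 windows held no Sp1 match. A link between these motifs and the direction of change was not tested. None of the 7 held TCACNCCAC, CACTTNA or the LXR repeat.

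The steps around these enzymes were read from lists of pathway genes, whose counts stand beside the 21.1% higher and 21.8% lower of all tested genes. In the rest of the elongation cycle and its electron transfer, 11 of 12 genes passed the filter, 4 fell and 2 rose (median log2 fold change -0.24). Cyb5b, a cytochrome b5 of the outer mitochondrial membrane, fell from 408 ± 21 to 223 ± 8.50 CPM (-0.87; edgeR, adjusted p = 1.86e-08). Cyb5r3, the reductase that feeds electrons to cytochrome b5 (-0.52), and the dehydratase gene Hacd3 (-0.41) fell, and its relative Hacd4 rose from 1.51 ± 0.573 to 4.67 ± 0.652 CPM (1.59). The main donor protein gene Cyb5a and the ketoreductase gene Hsd17b12, both at 0.11, did not pass (edgeR, adjusted p = 0.316 and 0.153), and both passed as higher with library-size scaling alone (0.22 and 0.21). Hacd3 was not called within either Y-linked set (-0.34 and -0.39; edgeR, adjusted p = 0.0517 and 0.184), and the mesenchymal covariate also ended its call (-0.22, adjusted p = 0.333 by edgeR). Cyb5r3 and Hacd4 were not called in the high Y-linked set (-0.57 and 1.48; edgeR, adjusted p = 0.0959 and 0.0949).

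In fatty acid synthesis, which makes the palmitate that Elovl6 and the Scd enzymes use, 7 of 10 tested genes fell and 0 rose (median -0.52). Fatty acid synthase, Fasn, went from 1811 ± 291 to 569.5 ± 34.1 CPM (-1.67; edgeR, adjusted p = 1.21e-08). Acaca, the acetyl-CoA carboxylase that makes malonyl-CoA, Acly, which makes cytosolic acetyl-CoA, and Acss1 fell as well (-1.19, -0.69 and -0.63). The mitochondrial synthesis genes Mcat (0.035) and Oxsm (0.21) did not pass (edgeR, adjusted p = 0.765 and 0.0941); Oxsm passed as higher when scaled by library size alone (0.32; edgeR, adjusted p = 0.0182).

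Among regulators of lipid synthesis 15 of 27 tested genes fell and 6 rose (median -0.19). Srebf1, which encodes the SREBP-1 activator of Scd, Fads and Elovl genes known from mouse liver, fell from 313 ± 29.2 to 175 ± 9.56 CPM (-0.84; edgeR, adjusted p = 2.23e-07). Insig1, a retention factor of SREBP, fell from 469 ± 64.1 to 213 ± 26.9 CPM (-1.14), and Mid1ip1, an activator of acetyl-CoA carboxylase, from 682 ± 118 to 317 ± 14.9 CPM (-1.10). Ppara, a nuclear receptor of fatty acid oxidation, had a log2 fold change of -1.14. Usf1 and Mbtps2, the latter a protease that releases SREBP, were at 0.051 and 0.025 and did not pass.

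Genes that use the chains moved both ways. In phospholipid and glycerolipid acylation 12 of 28 tested genes fell and 3 rose (median -0.27), led by Lpcat1, which makes dipalmitoyl phosphatidylcholine (-1.68), the acyltransferase Gpam (-1.05), Lpin1 (-1.06) and Cept1 (-0.97). Chka (-0.17) and Prdx6 (-0.28) did not pass (edgeR, adjusted p = 0.105 and 0.121), and both passed without Control libraries 5 and 6 (-0.25 and -0.46). In acyl-CoA activation and fatty acid transport 7 of 17 fell and 4 rose (median -0.10). There the binding protein gene Fabp5 fell from 39.1 ± 9.39 to 6.40 ± 1.26 CPM (-2.61) and Acot1 by 0.67 on the log2 scale, while the acyl-CoA synthetase genes Acsl1 (0.94) and Acsbg1 (0.0956 ± 0.115 to 4.19 ± 1.14 CPM) rose. Slc27a1 and Acsl5 were at -0.11 and -0.054 and did not pass (edgeR, adjusted p = 0.122 and 0.575).

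In the list of ceramide genes and users of very long chains 8 of 17 tested genes fell and 4 rose (median -0.22). The ceramide synthase genes Cers6, which prefers palmitoyl-CoA, and Cers3, which takes very long chains in skin, rose from 16.3 ± 1.43 to 56.5 ± 5.04 CPM (1.79; edgeR, adjusted p = 2.63e-10) and from 43.7 ± 6.97 to 85.1 ± 10.3 CPM (0.97). The peroxisomal importer gene Abcd3 fell (-0.81). Ugcg, which makes glucosylceramide, and Sptlc1, a subunit of the first enzyme of sphingolipid synthesis, were at 0.031 and -0.049 and did not pass. Degs1, the desaturase that makes ceramide from dihydroceramide, fell from 195 ± 45.1 to 90.9 ± 9.10 CPM (-1.10; edgeR, adjusted p = 4.14e-05), and Degs2, which overlaps Evl on the other strand, was at 0.36 and did not pass (edgeR, adjusted p = 0.0555). Degs2 passed as higher under 8 of 26 alternatives, among them other scalings, the proliferation covariate, limma-voom and leaving out Control library 6 (0.48; edgeR, adjusted p = 0.00366) or knockout library 3 (0.40; edgeR, adjusted p = 0.0496).

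In the list of polyunsaturated chain and eicosanoid genes, which use the arachidonate that Fads1 makes, 5 of 13 tested genes fell and 2 rose (median -0.20). The cyclooxygenase genes Ptgs1 and Ptgs2 fell from 298 ± 36.0 to 67.4 ± 7.14 CPM (-2.14; edgeR, adjusted p = 2.42e-10) and from 77.7 ± 31.4 to 11.7 ± 4.40 CPM (-2.72). Pla2g4a, the phospholipase that releases arachidonate, fell as well (-0.94), and the prostaglandin D synthase gene Hpgds rose from 3.0 ± 1.4 to 8.52 ± 2.37 CPM. The prostaglandin E synthase genes Ptges3 (-0.043) and Ptges (-0.30) did not pass (edgeR, adjusted p = 0.681 and 0.464). Ptges was at 0.10 in the low and -1.66 in the high Y-linked set, where it passed (edgeR, adjusted p = 0.0279), and ran from -0.53 without knockout library 3 to -0.11 without knockout library 4. The Hpgds call was lost among high Y-linked libraries (0.62; edgeR, adjusted p = 0.359).

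**Figure D5:**
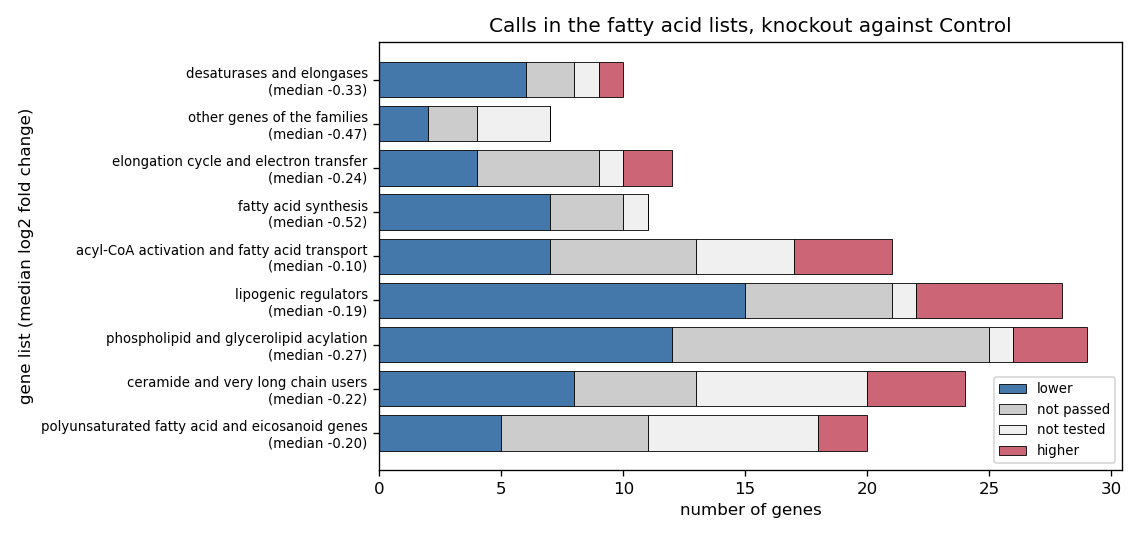
Number of genes in each list that were lower, did not pass, were not tested or were higher in the knockout by edgeR, with the list's median log2 fold change in the label. Fatty acid synthesis has 7 lower and 0 higher genes, and the regulators have 15 lower and 6 higher of 27 tested.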

How the data were processed

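Poly(A) RNA of EpCAM-selected E17.5 lung cells was measured in 6 Control and 5 PRDM3/16KO libraries. The authors deposited raw counts per gene symbol, 24421 rows. Per the submitters' processing notes, the build was mm10, and the tools listed, with no roles, were HTSeq 2.0, Bowtie2 2.4.2, DESeq2, Picard 2.18.22, SAMtools 1.10.0, FastQC and Trim Galore 0.4.2. Strand, annotation and the handling of multiply matching reads: not given in the sources used here.

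Counts were filtered with filterByExpr, leaving 13916 genes, scaled by TMM and tested for genotype with edgeR 4.0.16 (R 4.3.3), quasi-likelihood with robust moderation, two-sided, Benjamini-Hochberg over all tested genes, threshold 0.05. Standard errors are the coefficient over the square root of F. CPM are means ± SD. Union exon lengths and coordinates are from GENCODE M21. The steps were tested on simulated data.

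The members and lists were chosen with earlier results of these data known. Genes named from a pathway list are up to 4 called ones by p and the 2 most abundant that did not pass; all members and family genes are named, and for Scd1 and Elovl6 the 3 nearest profiles. A gene that this rule names is not reported here. Alternatives were other scalings, filters and tests (DESeq2 1.42.0, limma 3.58.1), covariates, Y-linked sets divided at 3 log2 CPM and left-out libraries. Date-like symbols stood on 27 rows.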

Additional observations from a re-analysis of the deposited data

Results flagged for a closer look

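Of 20 sets of values, 10 genes in each genotype, 2 held a library set apart from the others by its gap to the nearest one; chance gives about 1 in 20. Fads1 was at 215 CPM in Control library 4, and the next Control value was 176 CPM. Scd2 was at 2866 CPM in knockout library 1, below the other 4, which lay between 3054 and 3091 CPM. Without Control library 4 the Fads1 log2 fold change, and without knockout library 1 the Scd2 one, stayed called by edgeR.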

How the results depend on the processing

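Over 26 alternatives, Scd1 (log2 fold change -4.47 to -3.96), Scd2 (-1.05 to -0.74), Fads1 (-1.12 to -0.84) and Elovl6 (1.81 to 2.53) kept their direction and call in all; their highest adjusted p values were 0.000131, 0.0131, 0.00264 and 0.00162. Of 234 values for the 9 tested members, 10 lost and 5 gained a call and 2 changed sign, both for Elovl7, 0.019 with library-size scaling alone and 0.042 with the mesenchymal covariate. With single libraries left out, Elovl2 ran from -0.012 (without Control library 1) to 0.13 (without Control library 4); its highest value was 0.15, with library-size scaling alone. Of 1196 values for 46 other named genes, 10 lost and 22 gained a call and 26 changed sign, the last of genes that had not passed. The sign changes were, with library-size scaling alone and with upper-quartile factors, Acsl5 (0.050 and 0.00089), Sptlc1 (0.058 and 0.0075) and Ptges3 (0.064 and 0.014). With the mesenchymal covariate they were Mcat (-0.051) and Prdx6 (0.015), with the Y-linked one Mbtps2 (-0.024) and with the proliferation one Ugcg (-0.0033). In the low Y-linked set they were Mcat (-0.015), Mbtps2 (-0.090) and Ptges (0.10), and in the high one Acsl5 (0.086) and Ugcg (-0.013). Without Control libraries 5 and 6, Mbtps2 was -0.033 and Ugcg -0.037. With single libraries left out, Mcat ran from -0.0065 to 0.081, Mbtps2 from -0.011 to 0.11, Ugcg from -0.014 to 0.089 and Sptlc1 from -0.072 to 0.0042. Genes higher, genes lower and members lower came to 1408, 1272 and 3 when the mesenchymal mean was a covariate, to 1932, 1821 and 3 in the low Y-linked set, and to 869, 933 and 3 in the high one (1 knockout library, assumed to vary like the others), against 2936, 3037 and 6; fewer libraries enter the last fits, and otherwise the cause was not tested. Replicate numbers did not pair the libraries (correlations of same-numbered deviations -0.0615 to 0.266, highest with its own number for 1 of 5). With the replicate number as a block, 3079 genes were higher and 3118 lower, and 7 members lower, Elovl1 added (-0.40; edgeR, adjusted p = 0.00454); Ugcg was -0.012 in that fit. With the longest transcript as length, the Fads1 share of the FADS sum was 35.9% in Control and 26.4% in the knockout, and the Elovl6 share in the knockout 2.20%. Depth limits Elovl4, Scd4, Fads6 and Elovl3.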
